A study of Mus musculus with 18 samples.

Results

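The 9 genes described here, Gpx4, Gpx1, Gpx3, Txnrd1, Txnrd2, Msrb1, Sepw1, Sepp1 and Sephs2, encode mouse selenoproteins and were taken by gene symbol from the 22021 genes listed for dorsal root ganglia, where the cell bodies of sensory neurons lie. Gpx4 and Sepw1 were included because they were among the largest falls after paclitaxel. The other 7 stand beside them as members of the same protein class, and 14 further selenoprotein genes in the file serve for comparison. All 9 passed the filter of at least 1 CPM (reads scaled to one common total per library) in at least 4 of 16 libraries, as did 14214 genes in all.

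A selenoprotein carries selenocysteine, the selenium analogue of cysteine, at a UGA codon that would otherwise end translation. Reading this codon needs a stem-loop in the 3′ UTR of the mRNA, a binding protein, a dedicated elongation factor and a tRNA charged with selenocysteine. Gpx4 reduces lipid hydroperoxides within membranes and holds back ferroptosis, an iron-dependent form of cell death. Gpx1 and Gpx3 reduce hydrogen peroxide with glutathione, in the cytosol and outside the cell. Txnrd1 and Txnrd2 are the cytosolic and mitochondrial thioredoxin reductases, and Msrb1 repairs oxidised methionine. Sepw1 (Selenow) is a small thioredoxin-like selenoprotein abundant in muscle and brain, Sepp1 (Selenop) is the secreted selenium carrier of plasma, and Sephs2 makes the selenium donor for selenocysteine synthesis.

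The mice carried the Rosa26fsTRAP allele and Nav1.8cre, with Cre expressed under the promoter of Scn10a, which encodes the sodium channel Nav1.8, on a C57BL/6J background. All 4 groups share this genotype, so that cells with a history of Nav1.8 expression carry EGFP-L10a, a tagged ribosomal protein. The animals were males and females of 8 to 12 weeks. From each homogenate a sample of the extract cleared of nuclei and mitochondria was kept as input, and the rest went to anti-GFP beads for translating ribosome affinity purification (TRAP), so each biosample gave both libraries. The normal group held biosamples 1 to 4 and the paclitaxel group biosamples 5 to 8, each with n = 4 in input and in TRAP. Paclitaxel, a chemotherapy agent that binds microtubules and often leaves patients with nerve pain, was injected intraperitoneally 4 times at 4 mg/kg over 8 days, 16 mg/kg in all, in a cremaphor vehicle. Neither the use of vehicle in the normal mice nor the number of animals per biosample is given in the labels. Biosample 7 was the mean of 2 subsamples.

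Libraries held 4266007 to 32713515 reads over the listed genes. Pulldowns reached 1 CPM in 8081 to 13228 genes and inputs in 13152 to 14043. With the subsamples of biosample 7 averaged, the pulldowns of biosamples 1, 2, 5 and 6 reached it in the fewest genes of their treatment. The file's values are whole reads scaled to 1 total per library. Each transcript is read at its 3′ end and no length correction applies, so levels of different genes are given on the CPM scale. The median difference of all genes, TRAP minus input on the log2(CPM + 1) scale, was -0.66 in the normal and -0.56 in the paclitaxel group, and -0.33 and -0.28 under median-ratio scaling. The pulldowns were not free of mRNAs that mark other cell types. The 6 Schwann cell markers summed to 1948 to 3073 CPM in normal TRAP and 5756 to 10293 CPM in normal input. All 6 were lower in TRAP by limma (adjusted p under 0.05). Of 8 nociceptor markers 2 were higher there (Scn10a and Prph) and 2 lower (Trpv1 and Calca). Of 6 general neuronal markers 3 were higher (Uchl1, Tubb3 and Syt1) and 1 lower (Snap25). Over all genes 5.09% were higher and 24.7% lower.

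The coding windows around the selenocysteine codon are shown because they define the class and separate the members by where the codon lies. They come from GENCODE vM21 transcripts on GRCm38, 5′ to 3′ on the coding strand, with the TGA codon in capitals, 12 bases before it and up to 12 after it within the coding sequence.
Gpx4: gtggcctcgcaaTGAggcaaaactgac
Gpx1: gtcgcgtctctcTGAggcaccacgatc
Gpx3: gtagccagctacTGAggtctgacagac
Txnrd1: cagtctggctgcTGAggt
Txnrd2: gtgactggttgcTGAggc
Msrb1: caatcaagattcTGAatatttagcagc
Sepw1: tattgtggagctTGAggctataagccc
Sepp1, first of 10: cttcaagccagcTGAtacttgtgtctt
Sephs2: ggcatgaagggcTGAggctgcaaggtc

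In Gpx4 the codon is number 73 of 197, in exon 3 of 7 of transcript Gpx4-202, at chr10:80054737-80054739 on the plus strand. In Gpx1 it is codon 47 of 201 (chr9:108339451-108339453, plus strand) and in Gpx3 codon 73 of 226 (chr11:54907256-54907258, plus strand). The 3 peroxidases thus carry it in the first part of the protein, with 124 to 154 codons after it. In both reductases the codon is the last but one, codon 498 of 499 in Txnrd1 (chr10:82896037-82896039, plus strand) and codon 526 of 527 in Txnrd2 (chr16:18477772-18477774, plus strand). A TGC codon for cysteine precedes it and a glycine codon ends both frames. Msrb1 has it at codon 95 of 116 (chr17:24740158-24740160, plus strand), Sepw1 at codon 13 of 88 (chr7:15920464-15920466, minus strand) and Sephs2 at codon 63 of 452 (chr7:127273731-127273733, minus strand). Sepp1 has 10 TGA codons, the first at codon 59 of 380 (chr15:3274848-3274850, plus strand) and the other 9 between codons 259 and 377. The base after the codon was g in 7 of the 8 genes with a single codon and a in Msrb1, while in Sepp1 it was c after 5 of the 10 codons, g after 2, a after 2 and t after 1. These are features of the reference sequence, and no library value was set against them.

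**Figure D1:**
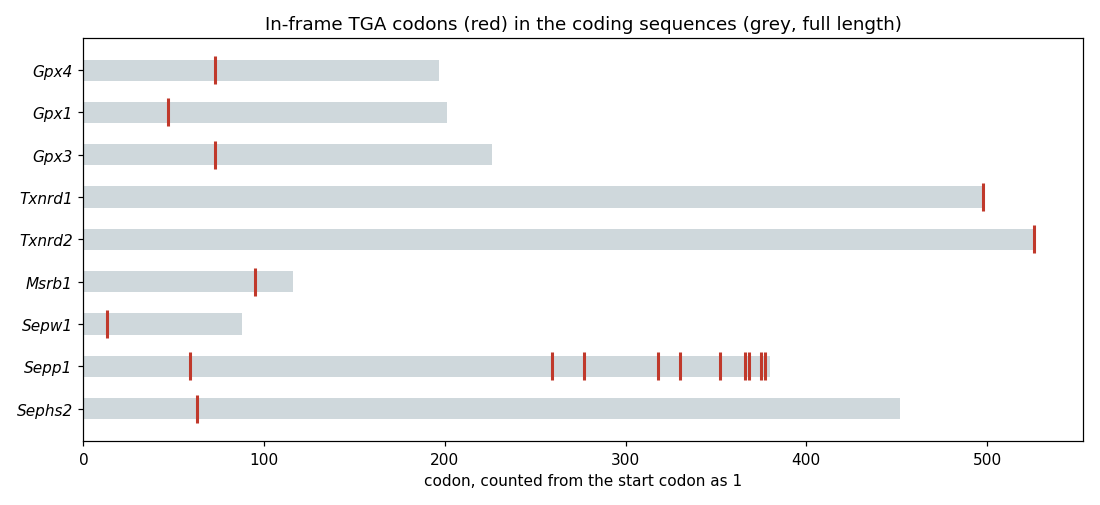
Position of in-frame TGA codons (red) along the coding sequence (grey bars, length in codons, counted from the start codon) of the 9 genes. Txnrd1 and Txnrd2 carry the codon next to last, Sepw1 at codon 13, and Sepp1 has 10, of which 9 lie from codon 259 on.

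Gpx4, the membrane lipid peroxidase (ENSMUSG00000075706.10, chromosome 10, 80047166 to 80056439, plus strand), was the most abundant of the 9 in both normal fractions. In normal input it stood at 497, 383, 256 and 741 CPM in biosamples 1 to 4, and in normal TRAP at 2066, 1829, 939 and 1662 CPM. In paclitaxel input it stood at 139, 202, 160 and 171 CPM in biosamples 5 to 8, and in paclitaxel TRAP at 335, 360.1, 269 and 294 CPM. All 4 normal libraries lay above all 4 paclitaxel libraries within each fraction, and every pulldown lay above its own input. The paclitaxel inputs were close to each other, whereas the normal inputs spread widely.

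Gpx4 was lower after paclitaxel by 2.79-fold in mean CPM in input (469 ± 206 against 168 ± 26.3 CPM, SD, n = 4), a log2(CPM + 1) difference of -1.38. In TRAP it was lower by 5.17-fold (1624 ± 486 against 314 ± 40.9 CPM), a difference of -2.32. These values chose the gene, so no test is given. Among the 431 genes lower without overlap in input and with a normal mean of at least 5 CPM, Gpx4 ranked 2, and among 482 such genes in TRAP it ranked 20. Over 20 other ways of processing the difference ran from -1.64 to -1.13 in input and from -2.63 to -2.15 in TRAP.

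Sepw1 (ENSMUSG00000041571.9, chromosome 7, 15917208 to 15922402, minus strand) was second to Gpx4 in mean level in both normal fractions. In normal input it stood at 297, 220, 183 and 150 CPM, and in normal TRAP at 867, 543, 323 and 351 CPM. In paclitaxel input it stood at 85.8, 85.8, 78.1 and 110.2 CPM, and in paclitaxel TRAP at 239.7, 324, 305 and 286 CPM. The input groups did not overlap. The TRAP groups did, since biosample 6 reached 324 CPM and biosample 3 only 323 CPM.

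The input difference of Sepw1 was -1.2 on the log2 scale, 2.36-fold in mean CPM, and ranked 7 in the list that Gpx4 was second in. The genes just above it in that list were Rasd1 (-1.25) and Akt1s1 (-1.22), and those just below it Mfsd7b (-1.19) and Gtpbp10 (-1.18). In TRAP the Sepw1 difference was -0.74, and -0.19 without biosamples 1, 2, 5 and 6. In input it was then -0.83. The subsamples of biosample 7 differed in TRAP, at 162 and 448 CPM.

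**Figure D2:**
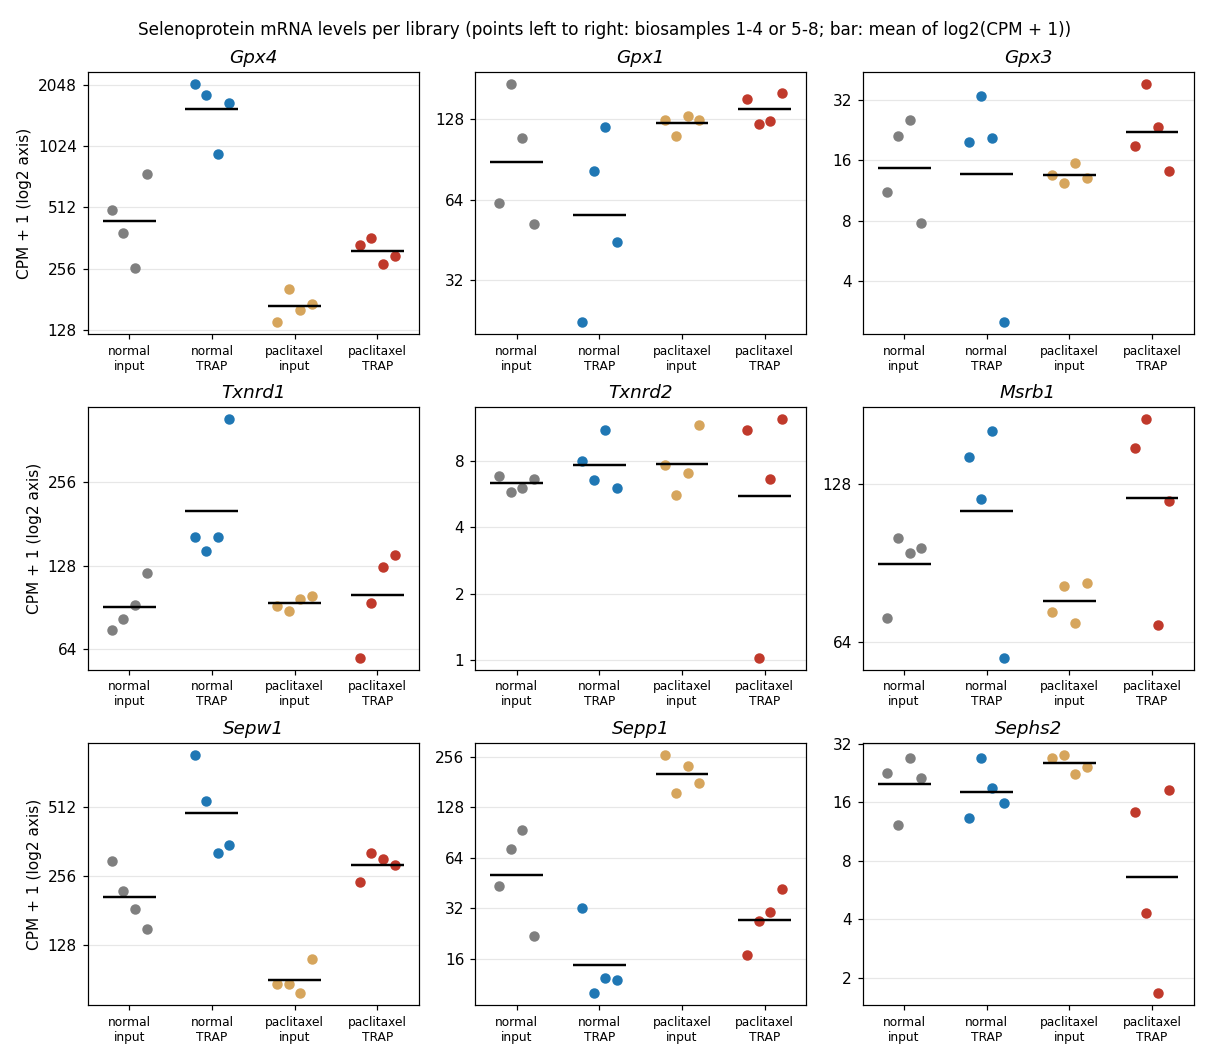
Level of each of the 9 genes in the 16 pooled libraries, as CPM + 1 on a log2 axis whose range differs between panels. Points are biosamples and bars the mean of log2(CPM + 1) of 4. Gpx4 and Sepw1 are lower in all paclitaxel inputs than in any normal input, and Sepp1 is higher.

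The summed level of general neuronal markers was also lower after paclitaxel, though not that of each marker. The 6 markers Snap25, Uchl1, Tubb3, Syt1, Stmn2 and Gap43 summed to 11844 to 14872 CPM in normal input and 6993 to 9122 CPM in paclitaxel input, and to 20337 to 41441 CPM in normal and 11868 to 18866 CPM in paclitaxel TRAP. Uchl1 (means of 6021 and 2715 CPM in normal and paclitaxel input), Tubb3 (4158 and 2359.9 CPM) and Snap25 (1493 and 887 CPM) made up the lower input sum. Syt1 was level (563 and 565 CPM), and Stmn2 (1219.7 and 1488 CPM) and Gap43 (267 and 305 CPM) had the higher mean after paclitaxel, in TRAP too. Of the 6, 1 fell in input by limma (Uchl1, adjusted p under 0.05) and 0 in TRAP. Of all 14214 genes tested, 26 fell in input and 70 (0.492%) in TRAP at this threshold. No neuronal marker was at 0 in all libraries of a group. The 8 nociceptor markers summed to 3835 to 5439 CPM in normal and 3334 to 4425 CPM in paclitaxel input. The part of these shifts in the lower Gpx4 and Sepw1 was not tested. In whole-tissue extracts, fewer cells of a type and less RNA per cell cannot be told apart.

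Over the 16 libraries genes whose log2(CPM + 1) pattern was among the most like that of Gpx4, of 8750 genes with a mean of at least 10 CPM, were Tnpo2 (Pearson r 0.973), Cct8 (0.962), Klc1 (0.956) and Tmem183a (0.955). Cct8, a subunit of a cytosolic chaperonin, had means of 833, 3772, 379.5 and 681 CPM in normal input, normal TRAP, paclitaxel input and paclitaxel TRAP. The genes most like Sepw1 were the neuronal ubiquitin hydrolase gene Uchl1 (0.946), Cmpk1 (0.929), Sqstm1 (0.92), Ap2s1 (0.917) and Cpt1c (0.915). Gpx4 and Sepw1 correlated at 0.819 with each other. Gpx4 correlated at -0.804 with Sepp1 and at -0.734 with Gpx1. These are descriptions over libraries that share 4 groups and 8 homogenates.

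The secreted selenium carrier Sepp1 (ENSMUSG00000064373.11, chromosome 15, 3268547 to 3280508, plus strand) went the other way in input. It stood at 42.2, 71.4, 92.4 and 20.9 CPM in normal input and at 263, 156, 225 and 178 CPM in paclitaxel input. In normal TRAP it stood at 31.3, 8.95, 11.2 and 10.9 CPM, and in paclitaxel TRAP at 15.7, 25.9, 29.2 and 40.5 CPM. Every paclitaxel input lay above every normal input, whereas the pulldown groups overlapped, with normal biosample 1 above the other normal pulldowns.

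The Sepp1 input difference was 2.01 on the log2 scale, 3.62-fold in mean CPM (56.7 ± 31.6 against 205 ± 48 CPM, SD, n = 4), and was the 30th highest of 14214 genes. It comes from the comparison that chose Gpx4 and Sepw1 and carries no test here. Over 20 other ways of processing it ran from 1.61 to 2.31. In TRAP the difference of 0.9 (SE 0.575, limma adjusted p = 0.466) did not pass. Macrophage markers, 7 genes, summed to 80 to 199.7 CPM in normal and 171 to 213 CPM in paclitaxel input. Fibroblast markers, 5 genes, summed to 1676 to 3548 and 2756 to 3919 CPM. None of these 12 genes passed in input by limma, and none was at 0. Of all 14214 genes tested, 207 were higher and 26 lower in input (limma adjusted p under 0.05), 1.64% in either direction. Endothelial markers, 5 genes, summed to 62.5 to 109.5 and 112 to 125 CPM without overlap, with 1 of 5 higher (Kdr). Satellite glia markers, 6 genes, summed to 597 to 1396 and 678 to 951 CPM, with 1 of 6 higher (Fabp7). Large-fibre neuron markers, 6 genes, summed to 708 to 1108 and 1214 to 1544 CPM without overlap, and none of the 6 passed. Schwann cell markers (5756 to 10293 and 6566 to 8571 CPM) and skeletal muscle markers (237 to 1498 and 676 to 1096 CPM) overlapped, with no call. Red cell markers, 5 genes, summed to 847 to 1189 and 1599.5 to 3726 CPM in input, with 2 of 5 higher (Hba-a1 and Hbb-bs). The 8 mitochondrially encoded mRNAs summed to 3616 to 10286 CPM in normal and 9596 to 20638 CPM in paclitaxel input, with 2 of the 7 tested higher (mt-Nd2 and mt-Cytb). Their part in the Sepp1 difference was not tested.

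The other 6 genes differed little between input groups. Gpx1 stood at 61.2, 173, 108 and 50.9 CPM in normal input and at 126, 110.1, 131 and 126 CPM in paclitaxel input, a difference of 0.49 with overlap. The differences of Txnrd1 (0.05), Gpx3 (-0.12), Msrb1 (-0.23), Txnrd2 (0.29) and Sephs2 (0.34) lay between -0.23 and 0.34, and the groups of each overlapped. Thus 2 members lay lower and 1 higher without overlap, against 3.14% and 8.16% of all genes. Since the rule used this comparison, nothing is read from that count.

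**Figure D3:**
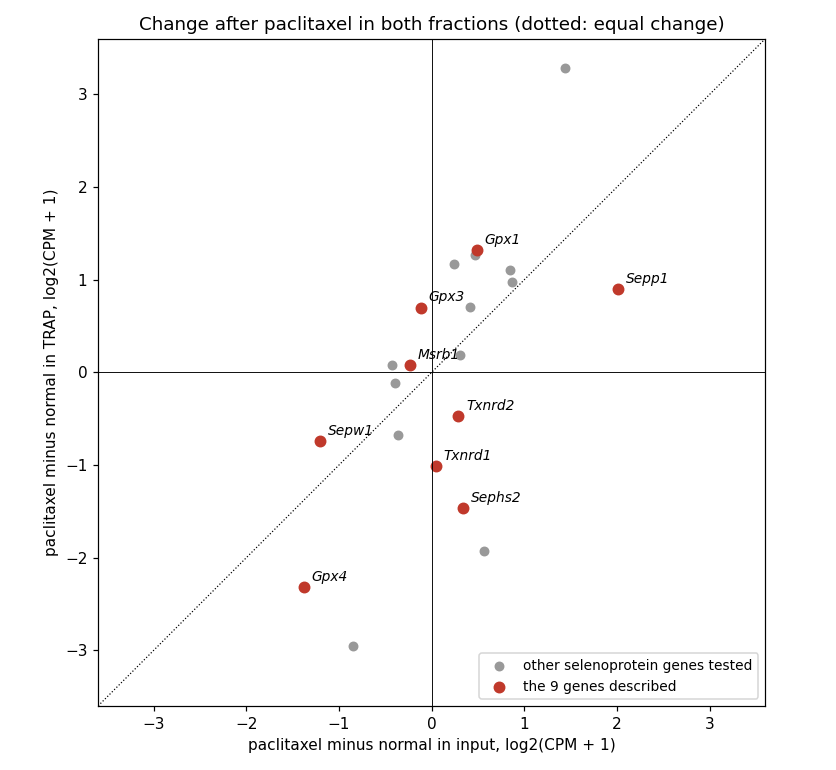
Paclitaxel minus normal difference in log2(CPM + 1), input on the x axis and TRAP on the y axis, for the 9 genes (red) and 12 other selenoprotein genes (grey). The dotted line marks equal differences. Gpx4 lies at -1.38 and -2.32, Sepp1 at 2.01 and 0.9, and Sepw1 at -1.2 and -0.74.

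In the pulldowns, paclitaxel against normal was tested for the 7 genes other than Gpx4 and Sepw1, with 8 TRAP libraries. These come from the same homogenates as the inputs and are not separate animals. None of the 7 passed by limma (adjusted p under 0.05), where 1.82% of all genes passed. At an unadjusted p under 0.05 there were 2, Gpx1 and Txnrd1, as for 16.9% of all genes, and edgeR called 1, Txnrd1, as for 3.36% of all genes. The count over all genes itself fell to 0 without biosample 2 or 8, and without biosamples 1, 2, 5 and 6.

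Gpx1, the cytosolic glutathione peroxidase (ENSMUSG00000063856.7, chromosome 9, 108338903 to 108340343), stood at 21.2, 80.8, 119 and 43.4 CPM in normal TRAP and at 151, 122, 125 and 160 CPM in paclitaxel TRAP. All 4 paclitaxel pulldowns were above all normal ones, as for 6.73% of all genes. The difference was 1.32 (SE 0.435, limma adjusted p = 0.132), or 2.1-fold in mean CPM. It passed without biosample 3 (1.69, adjusted p = 0.0456) and with a filter of 5 CPM (1.32, adjusted p = 0.0402).

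The cytosolic thioredoxin reductase Txnrd1 (ENSMUSG00000020250.9, chromosome 10, 82859206 to 82897724) stood at 161, 144, 162 and 431 CPM in normal TRAP and at 58.6, 93.1, 126 and 139 CPM in paclitaxel TRAP. All paclitaxel pulldowns were below all normal ones, as for 3.57% of all genes, and biosample 4 stood far above the other normal pulldowns. The difference was -1.01 (SE 0.377, limma adjusted p = 0.185). edgeR on the recovered reads gave -1.31 with an adjusted p of 0.0349. Txnrd1 overlaps Eid3 on the same strand and further genes on the other strand in the annotation, and the strand setting of the counting is not given in the sources used here.

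The selenium donor synthetase Sephs2 (ENSMUSG00000049091.6, chromosome 7) stood at 12.3, 25.9, 18 and 14.9 CPM in normal TRAP and at 13.2, 3.33, 0.665 and 17.6 CPM in paclitaxel TRAP. Biosamples 6 and 7 were low and the other paclitaxel pulldowns lay within the normal range. The difference of -1.46 (SE 0.864, limma adjusted p = 0.426) did not pass. Gpx3 (0.7, adjusted p = 0.701), Txnrd2 (-0.47, 0.845) and Msrb1 (0.08, 0.936) had overlapping groups, and each of these 3 changed sign under at least 1 other setting.

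Txnrd2, the mitochondrial reductase, was the least abundant member, with 1 read in the pulldown of biosample 6 (0.03 CPM) and 0 reads in subsample 1 of biosample 7, against 136 reads in subsample 2. A count of 0 among 10666813 reads allows up to 0.281 CPM, for counting error only. In the other 7 pooled pulldowns it stood between 5.02 and 11.3 CPM, with the subsamples of biosample 7 averaged, and in the inputs between 4.61 and 10.6 CPM. Gpx3 ranged from 1.51 to 37.5 CPM over all 16 libraries and Msrb1 from 58.8 to 169 CPM. The lowest value of both came from the pulldown of biosample 4.

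TRAP was also compared with input within each biosample, to see which mRNAs were bound to the tagged ribosomes. In the normal group Gpx4 was higher in TRAP in 4 of 4 biosamples, by 1.16 to 2.25 on the log2 scale with a mean of 1.84, the 54th highest of 14214 genes. Sepw1 was higher by 0.82 to 1.54 with a mean of 1.22. After paclitaxel Gpx4 was higher by 0.74 to 1.27 (mean 0.9) and Sepw1 by 1.37 to 1.95 (mean 1.67), the 36th highest of all genes. Pulldown and input did not overlap for either gene in either group, where 3.98% (normal) and 6.21% (paclitaxel) of all genes were higher in this way. No test is given for them, because their paclitaxel values chose them.

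Of the other 7 members, 1 rose and 1 fell in normal TRAP by limma (adjusted p under 0.05), while 29.8% of all genes passed, 5.09% higher and 24.7% lower. Txnrd1 rose in 4 of 4 biosamples, the input libraries averaging 91.5 ± 20.1 CPM and the pulldowns 225 ± 138 CPM (SD, n = 4). Its log2 change was 1.15 (SE 0.242, limma adjusted p = 0.0014). Input values of 73.7, 81, 91.6 and 119.5 CPM lay below every pulldown value. Sepp1 fell in 4 of 4 biosamples, with means of 56.7 ± 31.6 and 15.6 ± 10.5 CPM and a log2 change of -1.77 (SE 0.397, n = 4, limma adjusted p = 0.00228). Its groups overlapped, because the pulldown of biosample 1 (31.3 CPM) exceeded the input of biosample 4 (20.9 CPM). Both calls held in all 21 alternative settings.

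The remaining 5 did not pass in normal TRAP. Gpx1 was lower in 3 of 4 biosamples (-0.67, limma adjusted p = 0.0538), and passed without biosample 3 (-0.93, adjusted p = 0.0255) or 4 (-0.81, adjusted p = 0.0427) and, just under the threshold, in 2 further settings. Msrb1 (0.33, adjusted p = 0.349), Txnrd2 (0.28, 0.766), Gpx3 (-0.11, 0.891) and Sephs2 (-0.14, 0.87) had overlapping fractions. Gpx3 and Sephs2 changed sign under median-ratio scaling, to 0.29 and 0.28.

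**Figure D4:**
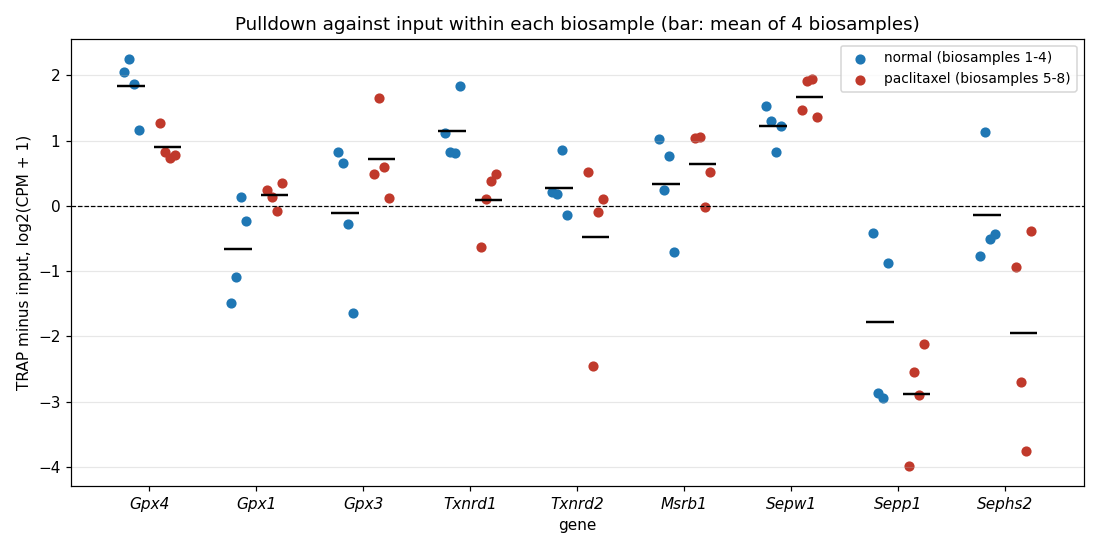
TRAP minus input in log2(CPM + 1) within each biosample, normal in blue and paclitaxel in red, with bars for the mean of 4. Gpx4 and Sepw1 are above 0 in all 8 biosamples and Sepp1 below 0 in all 8. Txnrd1 is above 0 in the 4 normal and in 3 of 4 paclitaxel biosamples.

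After paclitaxel, Sepp1 fell in 4 of 4 biosamples, from 205 ± 48 to 27.8 ± 10.2 CPM (SD, n = 4). On the log2 scale the change was -2.88 (limma, SE 0.397, adjusted p = 2.86e-05). Pulldown and input did not overlap for it or for Sephs2, as for 25.1% of all genes in this direction. Sephs2 also fell in 4 of 4, with a change of -1.94 (SE 0.58, limma adjusted p = 0.0162), from inputs of 26.1, 27.1, 21.3 and 23.4 CPM. That call was lost without biosample 6 (-1.69, adjusted p = 0.0786) or 7 (-1.34, adjusted p = 0.122), which were the low pulldowns, by quantile normalization (-1.21, 0.0636) and by edgeR (-1.85, 0.137). In this group 27.9% of all genes passed, 23% lower and 4.92% higher, and no member among the 7 rose. Msrb1 (0.65, adjusted p = 0.0745) passed under median-ratio scaling (0.97, 0.0159), quantile normalization (0.78, 0.0343) and edgeR (1.03, 0.0319) and without biosample 4 (0.65, 0.0489). Txnrd1 was at 0.09 (adjusted p = 0.811), Gpx1 at 0.17 (0.653), Gpx3 at 0.71 (0.33) and Txnrd2 at -0.48 (0.608).

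The paclitaxel difference in TRAP less that in input, from the fit over all 16 libraries, was -0.93 for Gpx4 and 0.45 for Sepw1. It was -1.06 for Txnrd1, -1.11 for Sepp1 and -1.8 for Sephs2, and 0.83 for Gpx1 and 0.82 for Gpx3. This contrast contains the comparison that chose the genes, so these are values with no test, and 0.19% of all genes passed in it. The difference of Gpx4 thus lay further below 0 in the pulldown than in input on this scale, and that of Sepw1 nearer to 0. Over 21 alternative settings the value ran from -1.16 to -0.76 for Gpx4 and from 0.24 to 0.64 for Sepw1.

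Summed over the 9 genes, normal input held 1059 ± 136 CPM, normal TRAP 2614 ± 649, paclitaxel input 799.8 ± 25.3 and paclitaxel TRAP 1039 ± 83.9 (SD, n = 4). Gpx4 made up 43.1% ± 13.9 of this sum in normal input and 61.3% ± 5.56 in normal TRAP, against 21.1% ± 3.96 and 30.2% ± 3.04 after paclitaxel. Without Gpx4 and Sepw1 the sums were 377, 469.6, 542 and 436 CPM in the same order of groups. The ordering of members differed between groups. In paclitaxel input the highest mean was that of Sepp1 (205 ± 48 CPM), then Gpx4 (168 ± 26.3) and Gpx1 (123 ± 9.23), where the ranges of Sepp1 and Gpx4 overlapped.

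**Figure D5:**
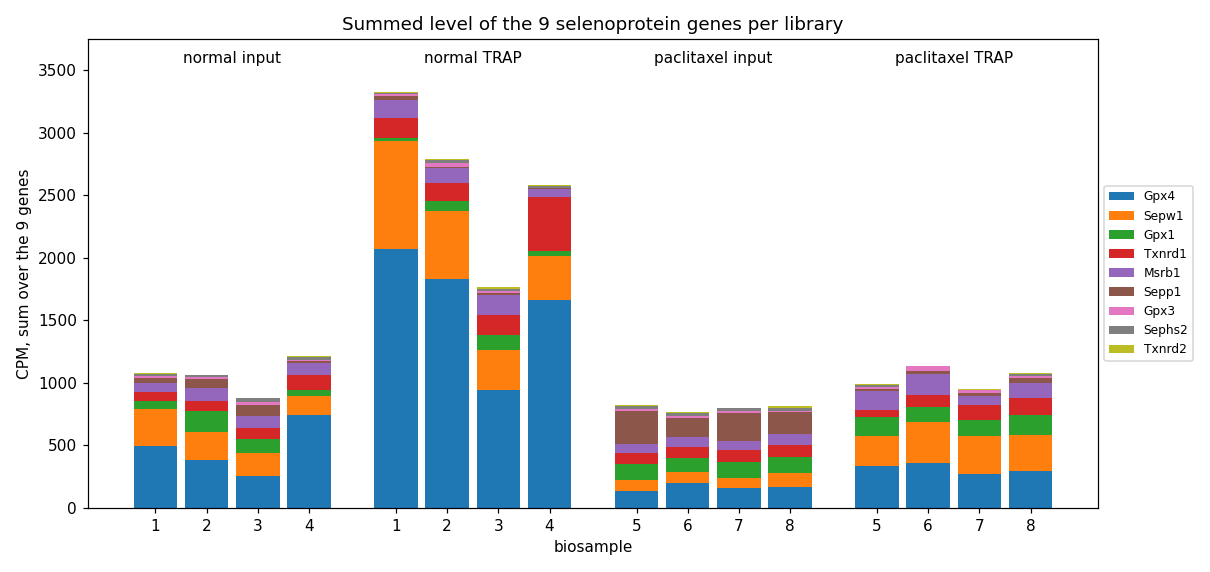
Stacked CPM of the 9 genes in each of the 16 pooled libraries, grouped by treatment and fraction. Normal TRAP libraries reach 1763 to 3328 CPM, most of it Gpx4, while paclitaxel TRAP libraries lie between 950.4 and 1135 CPM.

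Of 15 other selenoprotein genes looked for, 14 were in the file and 12 were tested, leaving out the deiodinases Dio1 and Dio3. In normal TRAP against input 0 rose and 5 fell by limma, where 24.7% of all genes fell, with a median of -0.48 beside -0.66 over all genes. Those that fell were Dio2 (-1.76, adjusted p = 0.0222), Selt (-1.14, 0.000643), Ept1 (-0.76, 0.0256), 2700094K13Rik, the selenoprotein H gene (-1.63, 0.0469), and Selk (-0.59, 0.0382), which the naming rule leaves out and which was added after its value was seen. After paclitaxel, where 23% of all genes fell, 2 fell, Dio2 (-1.51, 0.0475) and Selt, the endoplasmic reticulum selenoprotein T (-0.86, 0.00643). edgeR called none of the 12 in either group, beside 13.1% and 13.5% of all genes. At an unadjusted p under 0.05 there were 6 and 3, beside 42.7% and 40.4% of all genes. Between treatments none passed in input or in TRAP by limma, where 1.64% and 1.82% of all genes did, nor by edgeR, where 1.01% and 3.36% did. At an unadjusted p under 0.05 there were 3 in input (2 higher, 1 lower) and 2 in TRAP (1 higher, 1 lower), beside 19.1% and 16.9% of all genes. Their median difference was 0.36 in input and 0.45 in TRAP, beside 0.14 and 0.17 over all genes. Among them Gpx2, a peroxidase best known from the gut, was at -2.95 in TRAP (limma adjusted p = 0.0951), from 14.3 ± 5.17 to 1.32 ± 1.62 CPM (n = 4), and 2700094K13Rik at 3.29 (adjusted p = 0.0573), from 3.15 ± 3.06 to 31.2 ± 6.31 CPM. These were picked after their values were seen.

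Of 11 genes for selenocysteine synthesis and insertion, all tested, 3 fell in normal TRAP by limma, a share close to the 24.7% of all genes. They were Sephs1 (-2.14, adjusted p = 0.0344), Secisbp2l, a relative of the protein that binds the stem-loop (-1.25, 0.00205), and Scly, the lyase that recovers selenium (-2.1, 0.0276). After paclitaxel Secisbp2l (-1.33, 0.00157) and Scly (-2.21, 0.0223) fell and the ribosomal protein gene Rpl30 rose (0.56, 0.0292). Of all genes 23% fell and 4.92% rose in that group. Between treatments 0 passed in input and in TRAP by limma or edgeR, with 2 and 0 at an unadjusted p under 0.05, beside 19.1% and 16.9% of all genes. The 3 normal calls were lost by edgeR, those of Sephs1 and Scly in 10 of 21 settings each. edgeR called Rpl30 higher in both groups. After paclitaxel it also called Secisbp2l but not Scly, whose limma call was lost in 7 of 21 settings. Of 5 tested relatives with cysteine in place of selenocysteine, 2 fell in normal TRAP (Gpx8 and Msrb3) and 3 after paclitaxel (Gpx7, Gpx8 and Msrb3), with changes of -1.98 to -1.17, where 24.7% and 23% of all genes fell. edgeR called only Msrb3 of the 5, in the normal group, and the call of Gpx8 was lost in 12 of 21 settings in each group. Neither treatment comparison gave a call among these 5 by limma or edgeR, with 0 at an unadjusted p under 0.05.

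Of 14 tested genes that supply glutathione and thioredoxin, 2 rose in TRAP after paclitaxel by limma and 0 fell, where 1.33% of all genes rose and 0.492% fell. Txn1, the cytosolic thioredoxin that Txnrd1 reduces, rose from 782 ± 353 to 1929 ± 323 CPM (n = 4), by 1.38 on the log2 scale (SE 0.298, limma adjusted p = 0.0337). Glrx3, a glutaredoxin, rose from 119 ± 51.3 to 305 ± 53.7 CPM (n = 4), by 1.45 (SE 0.328, limma adjusted p = 0.0413). The call of Txn1 was lost without any 1 of biosamples 1, 2, 4, 5, 7 or 8 (adjusted p = 0.0822 to 0.145), and that of Glrx3 also without biosample 6 (0.0718 to 0.155 over these 7). The changes then ran from 1.25 to 1.41 and from 1.14 to 1.59. Both calls were also lost without filtering (0.133 for Txn1 and 0.153 for Glrx3) and under median-ratio scaling (0.0539 and 0.0717). The same held with subsample 1 of biosample 7 alone (0.0507 and 0.0836) and without biosamples 1, 2, 5 and 6 (0.492 and 0.458). edgeR called Txn1 (adjusted p = 0.0377) but not Glrx3 (0.0578), whose limma call a pseudocount of 5 also lost (0.0576). In input 0 of 14 passed by limma or edgeR, with 2 at an unadjusted p under 0.05, beside 19.1% of all genes. In TRAP against input 2 rose and 4 fell in the normal group by limma, and 3 rose and 3 fell after paclitaxel, where 5.09% and 24.7%, then 4.92% and 23%, of all genes did. In the normal group Gclm, the modifier subunit of glutathione synthesis (-2.76, adjusted p = 6.08e-05), Slc7a11, the cystine importer (-2.58, 0.00717), and Txnip, the thioredoxin inhibitor (-1.52, 0.00375), fell, and the mitochondrial thioredoxin Txn2 rose (1.01, 0.0111). After paclitaxel Slc7a11 (-3.22, 0.00177), Txnip (-2.28, 0.000153) and the glutathione synthetase gene Gss (-1.92, 0.0415) fell, and Glrx3 rose (0.9, 0.00657). edgeR did not call Slc7a11 or Txnip in the normal group, nor Gss after paclitaxel.

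Of 20 genes of lipid peroxidation and ferroptosis, 0 passed between treatments in input and 0 in TRAP, by limma and by edgeR, with 5 and 4 at an unadjusted p under 0.05. Each of these was higher, beside 14.5% (input) and 11.1% (TRAP) of all genes higher at this level. Their medians were 0.14 and 0.31, beside 0.14 and 0.17 over all genes. In TRAP against input 6 fell and 1 rose in the normal group by limma, where 24.7% and 5.09% of all genes did. Among those that fell were Vkorc1l1, a vitamin K reductase (-1.98, adjusted p = 0.00413), Nfe2l2, the regulator of antioxidant genes (-1.38, 0.0129), Tfrc, the transferrin receptor (-0.84, 0.0184), and Acsl4, which loads membranes with oxidisable fatty acids (-0.78, 0.00587). After paclitaxel 4 fell, including Nfe2l2 (-1.28, 0.0199) and the ferritin gene Fth1 (-1.15, 0.00319), and 1 rose, Cisd1, a mitochondrial iron-sulfur protein (0.65, 0.0268), where 23% and 4.92% of all genes did. edgeR called none of these falls in either group, and called Cisd1 and Pebp1 higher in both.

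Of 13 other antioxidant enzymes, 2 rose in TRAP after paclitaxel by limma and 0 fell, where 1.33% and 0.492% of all genes did, with a median of 0.99 beside 0.17 over all genes. Sod1, the cytosolic superoxide dismutase, rose from 388 ± 57.4 to 1333 ± 563 CPM (n = 4), by 1.69 (SE 0.303, limma adjusted p = 0.0146). Hagh, glyoxalase II, rose from 12.3 ± 9.92 to 108 ± 45.4 CPM (n = 4), by 3.18 (SE 0.554, limma adjusted p = 0.0143). edgeR called both. Both calls were lost without any 1 of biosamples 1, 2, 5, 7 or 8 (changes of 1.46 to 1.78 with adjusted p = 0.0507 to 0.132 for Sod1, and of 2.89 to 3.62 with 0.0532 to 0.132 for Hagh). They were also lost without filtering (0.109 and 0.108) and without biosamples 1, 2, 5 and 6 (0.417 for each). In input 0 of 13 passed by limma or edgeR, with 4 at an unadjusted p under 0.05, beside 19.1% of all genes. In TRAP against input 1 rose and 6 fell in the normal group by limma, where 5.09% and 24.7% of all genes did. After paclitaxel 2 rose and 1 fell, where 4.92% and 23% of all genes did. For these 13, edgeR called 2 higher and 2 lower in the normal group, and 3 higher and 0 lower after paclitaxel. It called 13.1% and 13.5% of all genes in either direction.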

How the data were processed

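The members and gene lists were chosen with earlier results of these data known. Per the submitters' processing notes the genome build was GRCm38.p4, and the tools were TopHat2 2.1.1 and Bowtie2 2.2.9 together with Cufflinks 2.2.1 and, for read quality, FastQC 0.11.5. The strand setting is not given in the sources used here, so overlapping genes on opposite strands cannot be told apart.

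The deposited values are named TPM in the file header but are CPM: 98% to 99.1% of the non-zero values of a library are whole multiples of 1 step (tolerance 0.0051 CPM). The step gave each library's reads and the 3-read floor of 0.0917 to 0.703 CPM, which covers counting error only. The comparisons were planned without assuming this unit. The 2 columns in which the authors merged subsamples were not used. Replicates are biosamples. The labels do not say that they are separate animals, so p-values measure the spread between these samples.

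Genes that reached 1 CPM in 4 or more of 16 pooled libraries were tested on log2(CPM + 1), which understates changes of low genes, with limma 3.58.1 in R 4.3.3 (trend on, robust off, two-sided, Benjamini-Hochberg over 14214 genes, threshold 0.05). TRAP against input and its paclitaxel shift came from 1 fit with biosample as a block, since both fractions came from 1 homogenate. Deviations of paired libraries from their group means correlated at 0.053 to 0.376 over the genes tested. Each input was compared only with the 4 pulldowns of its treatment, and 7 of 8 correlated best with their own. Paclitaxel against normal was fitted on 8 inputs and on 8 pulldowns. The scripts were tested on simulated counts with the same dispersion for all genes and no biosample effect. That run cannot show how the calls hold in these libraries. Alternatives were pseudocounts of 0.1 and 5, no filter, 5 CPM in 4 libraries, median-ratio and quantile scaling, robust estimation, leaving out globin and mitochondrially encoded genes, subsample 1 or 2 of biosample 7 alone, edgeR 4.0.16 (quasi-likelihood, TMM) on recovered reads, each biosample left out and no replicate block. Leaving out biosamples 1, 2, 5 and 6 was added after seeing the data.

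All 9 members were named, with at most 4 genes per list and comparison of those that passed with at least 5 CPM, and the 5 genes most like Gpx4 and Sepw1, of which 1 is not reported here. Exceptions are stated where they occur.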

Additional observations from a re-analysis of the deposited data

Results flagged for a closer look

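Among 36 groups of 4 libraries, 2 held a sample far from the other 3 by the 95% value of Dixon's gap test, where chance gives about 1 in 20. Sepp1 stood at 31.3 CPM in the normal pulldown of biosample 1, beside 8.95 to 11.2 CPM in the others. Txnrd1 stood at 431 CPM in the normal pulldown of biosample 4, beside 144 to 162 CPM in the others, and the input of that biosample was also the highest of the normal inputs at 119.5 CPM. Without biosample 1 the normal Sepp1 change of TRAP against input was -2.23 (limma adjusted p = 0.000859), and without biosample 4 that of Txnrd1 was 0.92 (adjusted p = 0.0181).

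For Hagh, TRAP against input differed between treatments, by 2.61 on the log2 scale (SE 0.451, limma adjusted p = 0.0139 for the interaction). It was -2 in normal mice (adjusted p = 9.09e-05) and 0.61 after paclitaxel (adjusted p = 0.154). The interaction was lost in 9 of 21 settings, among them edgeR, no replicate block and leaving out biosample 2, 5, 7 or 8.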

How the results depend on the processing

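The numbers of genes that passed over the whole table moved with the processing, from 4233 (TRAP against input, normal), 3963 (paclitaxel), 233 (paclitaxel against normal, input), 259 (TRAP) and 27 (paclitaxel shift of TRAP against input). In the same order, quantile normalization gave 2756, 2958, 125, 576 and 6, and edgeR 1864, 1915, 144, 478 and 0. No filter gave 0 in each of the last 3 comparisons by limma, with 2962, 2372 and 1737 genes at an unadjusted p under 0.05. Subsample 1 of biosample 7 alone gave 2785 for normal TRAP against input, 100 for TRAP and 5 for the shift, and subsample 2 alone 17 for the shift. A filter of 5 CPM gave 729 and robust estimation 590 for TRAP, and a pseudocount of 0.1 gave 13 for the shift. Leaving out biosamples 1, 2, 5 and 6 gave 2393, 1845, 126, 0 and 9 (1528 for the 0 at an unadjusted p under 0.05). Leaving out 1 biosample at a time gave 2327 to 4356, 2049 to 4377, 0 to 831, 0 to 491 and 0 to 86. The lowest came without biosample 1 (normal TRAP against input; input), 6 (paclitaxel TRAP against input), 2 and 8 (TRAP) and 7 (shift). Median-ratio scaling gave 1406 higher and 1711 lower in normal TRAP against input, where 724 and 3509 were called, and edgeR 1252 and 612. The cause of these moves was not tested.

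Without the replicate block the limma counts were 3287, 3119 and 0 (1082 for the 0 at an unadjusted p under 0.05). edgeR was run only with the block. Leaving out the block changed no member's call by limma. The normal change of Txnrd1 was 1.15 with an adjusted p of 0.0138 then, and that of Sepp1 -1.77 with 0.00684.

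The input difference of Gpx4 kept its direction in all 20 settings, and that of Sepw1 too, at -0.83 without biosamples 1, 2, 5 and 6. Both genes were chosen by this difference, so its constant direction is a description only. Of 5 members near 0, none passed on either side of a change of sign. Normal TRAP against input of Gpx3 was 0.03 with a pseudocount of 5, 0.29 and 0.39 under median-ratio and quantile scaling, 0.41 by edgeR and -0.42 to 0.4 leaving out 1 biosample. That of Sephs2 was 0.28, 0.35 and 0.35 under those 2 scalings and edgeR, and -0.57 to 0.07. After paclitaxel Txnrd1 was -0.02 with subsample 2 alone and -0.05 to 0.33 leaving out 1 biosample, and Txnrd2 was 0.72 under quantile scaling, 0 without the 4 biosamples and -0.81 to 0.18. In TRAP between treatments Msrb1 was -0.14, -0.04 and -0.18 under both scalings and edgeR, -0.03 with subsample 2 alone, -0.12 without the 4 biosamples and -0.23 to 0.35. Txnrd2 was 0.16 without the 4 biosamples and -0.86 to 0.33, and Gpx3 -0.11 to 1.14.

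Depth set a limit of 0.0917 to 0.703 CPM for a count of 0. Txnrd2 lay under it in the pulldown of biosample 6, the deepest library, and in subsample 1 of biosample 7, where Sephs2 came to 1 read.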
